A study of Sus scrofa with 12 samples.

Results

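The genes that buffer the energy charge of muscle through creatine and the adenylates were examined in the longissimus dorsi (LD, the loin muscle) of Iberian pigs. The set named 9 symbols, chosen as the creatine kinases CKM, CKB and CKMT2, the adenylate kinases AK1 and AK4, the AMP deaminases AMPD1 and AMPD3, the creatine transporter SLC6A8 and the creatine-synthesis enzyme GAMT. Of these, 8 were matched by symbol to a row among the 25880 genes of the count tables. No gene ID of the tables was paired with the symbol AK4, which was not analysed here, and 14857 of the 25880 IDs had a symbol.

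Phosphocreatine is a store of high-energy phosphate that creatine kinase uses to rebuild ATP from ADP when a fibre contracts. Adenylate kinase makes ATP and AMP from ADP, and AMP deaminase then removes the AMP by converting it to IMP, which keeps the adenylate kinase reaction running forward. Fast glycolytic fibres, which make up most of a loin muscle, rely heavily on these reactions.

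The samples came from 12 castrated male Iberian pigs of a closed commercial population, fattened free-range and slaughtered at about 17 months. The High MB group held the 6 pigs with high breeding values for muscle myoglobin (MB) content, 0.159 to 0.206, and the Low MB group the 6 pigs with low values, -0.248 to -0.149. The measured content was 2.376 to 2.559 mg of myoglobin per g of muscle in the High MB pigs and 1.226 to 1.580 mg per g in the Low MB pigs. The groups were the extremes of a breeding value and received no treatment, and each pig gave 1 RNA-seq library, so bulk muscle is described and fewer cells of a type cannot be told apart from less RNA per cell.

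Gene counts per library summed to between 38914271 and 91318334. Deep libraries, of more than 50000000 gene counts, came from pigs 4 and 6 of the High MB group and pigs 1, 5 and 6 of the Low MB group, and the other 7 pigs had standard ones. The tissue label was checked against fibre markers: the 6 measured fast fibre genes summed to between 20875 and 50266 CPM (the count scaled by library size, after TMM normalization), and the 6 measured slow fibre genes to between 4840 and 12550 CPM. The lowest fast fibre sum was that of High MB pig 2, 20875 CPM against 35682 to 50266 CPM in the other 11 pigs, which also had the highest macrophage marker sum, 90.9 CPM against 19.2 to 51.6 CPM. This library and that of Low MB pig 4 stood apart in several of the genes below, so the results that rest on them are also given without both pigs.

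None of the 8 genes was called different between the groups. A call required a Benjamini-Hochberg adjusted p under 0.10 in edgeR's quasi-likelihood test and an absolute log2 fold change over 0.58. Over all 13373 genes tested, 0 genes were called, which is 0% of them, and the smallest adjusted p from edgeR was 0.563. At an unadjusted p under 0.05 the test found 1132 genes, or 8.46% of those tested, and 0 of the 8 energy buffering genes. With DESeq2, 29 genes were called and again 0 of the 8. The median absolute log2 fold change was 0.15 over the 8 genes and 0.15 over all genes tested. The lowest and highest pigs of both groups overlapped for each of the 8 genes, while 57 of the 13373 genes tested, or 0.426%, had groups that did not overlap.

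**Figure D1:**
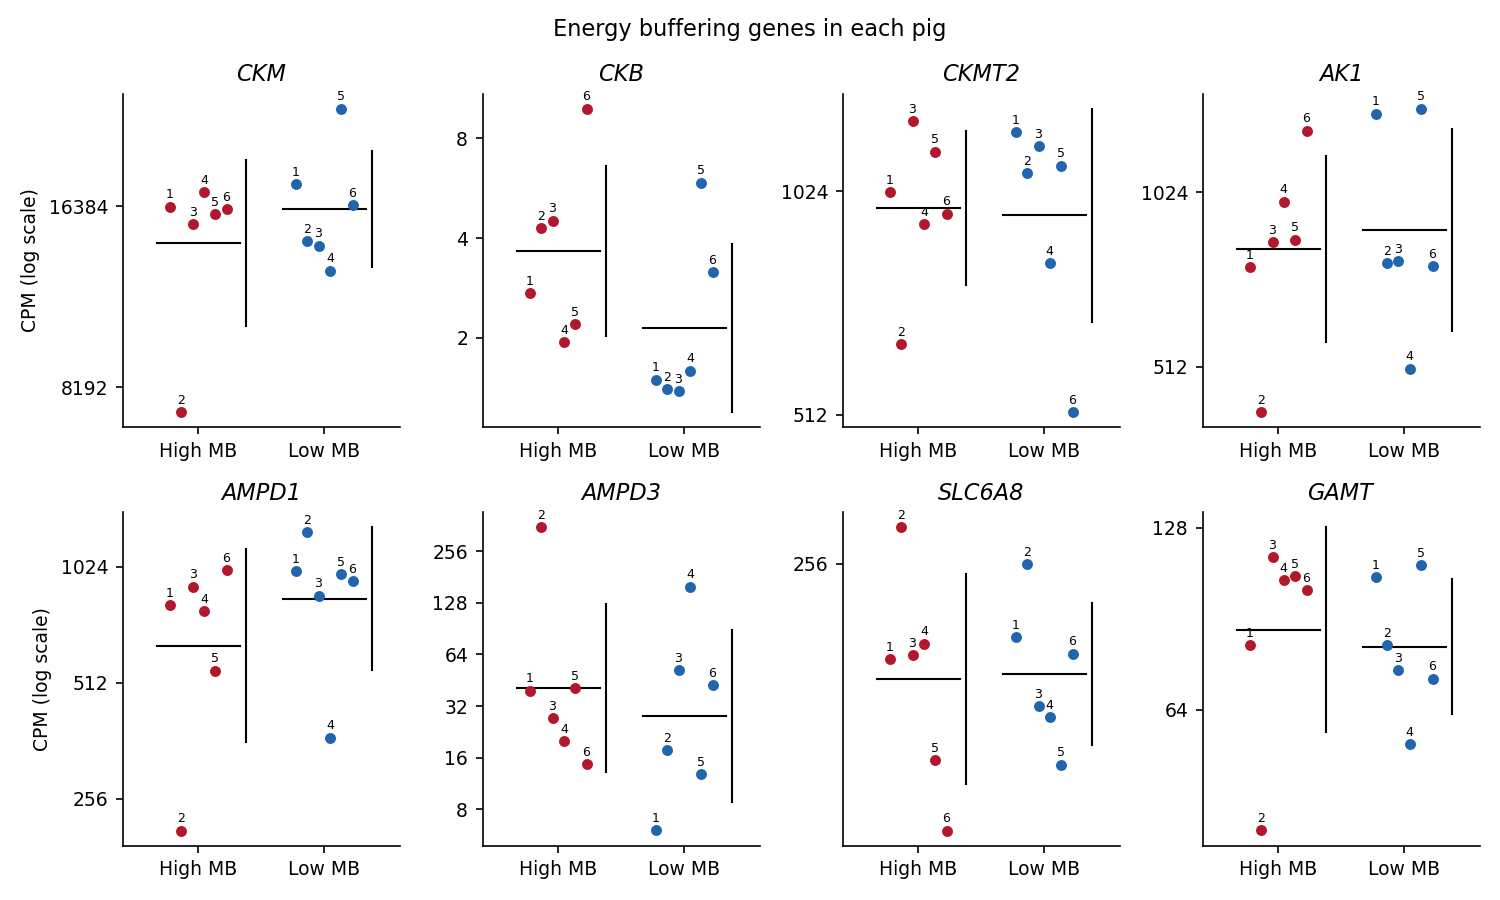
Level of each of the 8 genes in each pig, in CPM on a log2 axis, High MB in red and Low MB in blue. Digits are pig numbers, horizontal bars are the group means of log2 CPM, and vertical bars at the side are ± 1 SD (n = 6 per group). The groups overlap in every panel, and High MB pig 2 is the lowest pig for CKM, AK1, AMPD1 and GAMT and the highest for AMPD3 and SLC6A8.

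**Figure D2:**
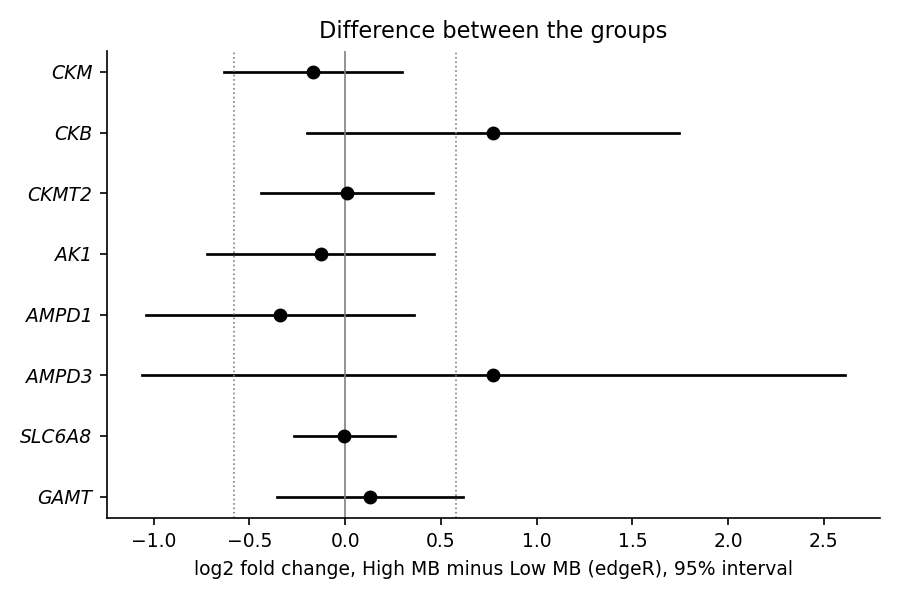
Log2 fold change of each gene, High MB minus Low MB, from edgeR, with its 95% interval (6 pigs per group). Dotted lines mark the limit of 0.58 in each direction. All 8 intervals span 0, the narrowest being that of SLC6A8 and the widest that of AMPD3.

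The cytosolic creatine kinases came first in the analysis because they span the whole range of levels in the set. CKM, the muscle creatine kinase, lies at chr6:51704021-51716935 on the minus strand of Sscrofa11.1, and CKB, the brain-type enzyme, lies on an unplaced scaffold of that build at bases 2070843 to 2074141, also on the minus strand. To show what stands just upstream of these genes, the 250 bases before the transcript start in RefSeq were searched on both strands for CANNTG (the E-box, the letters bound by MyoD and related factors), its form CAGCTG, and TATAAA. Both genes hold CAGCTG and TATAAA there. The sites are printed as 30 bases on the strand of the gene, with the motif in capitals.

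CKM, CAGCTG starting 99 bases upstream, chr6:51714896-51714925: gaagcgagagcgCAGCTGccctccaccccc
CKM, TATAAA starting 32 bases upstream, chr6:51714829-51714858: ctgggcccccccTATAAAaggccagggctg
CKB, CAGCTG starting 21 bases upstream, scaffold bases 2074145 to 2074174: gccccttaagagCAGCTGgagctctgagcg
CKB, TATAAA starting 66 bases upstream, scaffold bases 2074190 to 2074219: gaatgaatgggcTATAAAtagcggccaatg

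Of 20664 RefSeq promoter windows of the same length, 61.9% held CANNTG, 13.6% held CAGCTG and 10.6% held TATAAA, counting either strand. A second CANNTG stood 240 bases upstream of CKM, and the TATAAA of CKB overlapped a match to the motif of MEF2, which 2.62% of the windows held. Another predicted RefSeq transcript of CKM starts further upstream, so the window of CKM lies inside the annotated gene. These matches describe letters in a window and show no binding. The sequence lines above are given because the upstream windows of CKM and CKB share these letters, while the RNA levels of the genes lay far apart.

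CKM ranked 5 of the 25880 genes by mean CPM and took 0.905% to 2.12% of the gene counts of a library. In the High MB group CKM had a lowest value of 7452 CPM, a median of 16035 CPM and a highest value of 17273 CPM. In the Low MB group the lowest, median and highest values were 12793, 15384 and 23786 CPM. Of all 12 pigs, High MB pig 2 was the lowest and Low MB pig 5 the highest, and the other 10 pigs of both groups lay between 12793 and 17816 CPM. The log2 fold change of CKM, High MB minus Low MB, was -0.17 (SE 0.22, edgeR adjusted p = 0.859), with a 95% interval from 0.646-fold to 1.23-fold. The exact two-sided permutation test of the mean log2 CPM gave p = 0.513. With High MB pig 2 and Low MB pig 4 both left out, the log2 fold change was -0.07 (edgeR adjusted p = 0.911).

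CKB was the least expressed gene of the set, with 54 to 913 counts per library and rank 9628 by mean CPM. High MB pigs 1 to 6 had 2.73, 4.28, 4.51, 1.95, 2.20 and 9.81 CPM. Low MB pigs 1 to 6 had 1.50, 1.40, 1.38, 1.60, 5.87 and 3.16 CPM. Low MB pigs 1 to 4 lay below every High MB pig, whereas Low MB pigs 5 and 6 lay among them. Between the groups CKB had a log2 fold change of 0.77 (SE 0.45, edgeR unadjusted p = 0.111, adjusted p = 0.647), and the exact permutation p was 0.149 (n = 6 per group). The interval of this difference, 0.870-fold to 3.35-fold, was wide. Single pigs moved it: the log2 fold change was 0.32 without High MB pig 6 and 1.23 without Low MB pig 5 (edgeR adjusted p = 0.887 and 0.452). With High MB pig 2 and Low MB pig 4 both left out, it was 0.69.

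The CKB difference was also taken within each depth class. Among the standard libraries the 4 High MB pigs had 2.20 to 4.51 CPM and the 3 Low MB pigs 1.38 to 1.60 CPM, without overlap. The share of all genes without overlap in these libraries was not computed, and any 1 of the 35 splits has a share of 0.0286. The log2 fold change there was 1.24 (edgeR adjusted p = 0.768), with an exact two-sided permutation p of 0.0571. Among the deep libraries the 2 High MB pigs had 1.95 and 9.81 CPM and the 3 Low MB pigs 1.50 to 5.87 CPM, with a log2 fold change of 0.79 (edgeR adjusted p = 0.999) and an exact permutation p of 0.600, where the 10 splits allow none below 0.1. Smooth muscle markers (MYH11, ACTA2, CNN1 and TAGLN) moved with CKB in part: their summed level was highest in High MB pig 6, at 700 CPM, and next in Low MB pigs 5 and 6, at 274 and 229 CPM, against 85.2 to 161 CPM in the other 9 pigs. Their part in the CKB values was not tested, and 0 of these 4 markers had an unadjusted edgeR p under 0.05 between the groups.

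CKMT2, the sarcomeric mitochondrial creatine kinase, which makes phosphocreatine at the mitochondrion, lies at chr2:89796470-89830293 on the plus strand. Its lowest, median and highest values were 637, 988 and 1273 CPM in High MB pigs and 516, 1096 and 1230 CPM in Low MB pigs. The lowest Low MB pig was pig 6, and the ranges nearly coincided. Between the groups CKMT2 had a log2 fold change of 0.0085 (SE 0.21, edgeR adjusted p = 0.995), with a 95% interval from 0.737-fold to 1.37-fold.

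Ranks by CPM and ratios of counts do not allow for gene length, so the 8 genes were ordered by CPM per kb of the exons RefSeq gives to a gene. On this scale CKM averaged 6836 CPM per kb over the 12 pigs, CKMT2 467, AK1 459, AMPD1 316, SLC6A8 101, GAMT 67.3, AMPD3 6.34 and CKB 2.08. CKM exceeded CKMT2 in 12 of 12 pigs, by 10.9-fold to 29.6-fold, and exceeded CKB by 1167-fold to 8422-fold. CKMT2 and AK1 were neighbours whose order was not stable, since CKMT2 was higher in 7 of 12 pigs. AMPD3 was above CKB in 8 of 12 pigs. AK1 exceeded AMPD1, AMPD1 exceeded SLC6A8 and GAMT exceeded AMPD3 in 11 of 12 pigs each, and SLC6A8 exceeded GAMT in 12 of 12.

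As a share of the per-length level of the 3 creatine kinases, CKM held 93.0% ± 1.24 in High MB pigs and 93.8% ± 1.85 in Low MB pigs (SD, n = 6 each, exact permutation p = 0.426). CKMT2 held 6.94% ± 1.23 and 6.20% ± 1.85 (SD, n = 6 each, exact permutation p = 0.442). The share of CKB was 0.0414% ± 0.0291 in High MB pigs and 0.0187% ± 0.00895 in Low MB pigs (SD, n = 6 each, exact permutation p = 0.108). On leaving out single pigs, the High MB less Low MB difference in share ranged from -1.17 to -0.18 percentage points for CKM, with -0.18 without Low MB pig 6. For CKMT2 it ranged from 0.156 without that pig to 1.15 without Low MB pig 3. For CKB the difference of 0.0226 percentage points became 0.0148 without High MB pig 6 and 0.0279 without High MB pig 4. With the share of AMPD3 among the AMP deaminases, 4 shares were tested, and the smallest Benjamini-Hochberg adjusted p of these exact permutation tests was 0.433.

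AK1, the cytosolic adenylate kinase of muscle, lies at chr1:268355032-268365659 on the minus strand. Its lowest, median and highest values were 428, 845 and 1309 CPM in High MB pigs and 509, 777 and 1429 CPM in Low MB pigs. The lowest pig of each group was High MB pig 2 and Low MB pig 4, and the highest were High MB pig 6 and Low MB pigs 1 and 5, with 1309, 1401 and 1429 CPM. These highest pigs had deep libraries, as did High MB pig 4, at 988 CPM, and Low MB pig 6, at 764 CPM. The standard libraries had 428 to 848 CPM. The log2 fold change was -0.13 (SE 0.28, edgeR adjusted p = 0.922), with a 95% interval from 0.607-fold to 1.38-fold, and it was -0.09 without High MB pig 2 and Low MB pig 4.

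Of 7 other adenylate kinases, 5 had a row, 4 were tested and 0 had an unadjusted edgeR p under 0.05. The highest mean among them was that of AK3, a mitochondrial matrix enzyme that uses GTP, at 60.6 CPM.

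AMPD1, the muscle AMP deaminase, lies at chr4:105868834-105892171 on the plus strand, and AMPD3, the isoform best known from red cells, at chr2:49026695-49084982 on the minus strand. The same search found no CAGCTG upstream of either gene. The windows were compared because these isoforms varied in opposite directions between pigs, and the sites are given in the same form, with the motif in capitals.

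AMPD1, CANNTG starting 206 bases upstream, chr4:105868753-105868782: caccgaaggcttCACCTGtttttcactgtc
AMPD1, TATAAA starting 177 bases upstream, chr4:105868782-105868811: caatgctaaagcTATAAAtaggtctaaagc
AMPD3, CANNTG starting 193 bases upstream, chr2:49085158-49085187: catgaatgagacCATGTGaaagcagttggc
AMPD3, CANNTG starting 183 bases upstream, chr2:49085148-49085177: accatgtgaaagCAGTTGgcagtgtcaaga

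AMPD1 held a second TATAAA, on the opposite strand 83 bases upstream and inside the annotated gene, which starts before the curated transcript, and a MEF2 match that overlapped the printed TATAAA, and AMPD3 held neither motif. Both genes thus held CANNTG, as did 61.9% of all windows.

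AMPD1 had lowest, median and highest values of 212, 800 and 1002 CPM in High MB pigs and 369, 961 and 1261 CPM in Low MB pigs. The lowest of their groups were again High MB pig 2 and Low MB pig 4. AMPD1 had a log2 fold change of -0.34 (SE 0.33, edgeR adjusted p = 0.793), with a 95% interval from 0.486-fold to 1.28-fold. With both of these pigs left out it was -0.29 (SE 0.16, edgeR unadjusted p = 0.0935, adjusted p = 0.645).

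AMPD3 varied more between pigs than any other gene of the set. High MB pigs 1 to 6 had 39.3, 353, 27.1, 19.9, 40.6 and 14.6 CPM. Low MB pigs 1 to 6 had 6.02, 17.6, 51.8, 159, 12.8 and 42.3 CPM. High MB pig 2 and Low MB pig 4 were far above the others, and the remaining 10 pigs of both groups overlapped between 6.02 and 51.8 CPM. The SD of its log2 CPM over the 12 pigs was 1.60, larger than that of 99.6% of the genes tested, whose median SD was 0.331. The highest pig was 58.6 times the lowest, compared with 5.95 times for AMPD1.

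The log2 fold change of AMPD3 was 0.77 (SE 0.86, edgeR adjusted p = 0.829), and its 95% interval reached from 0.480-fold to 6.10-fold. The value rested on single pigs: it was -0.76 without High MB pig 2, 1.66 without Low MB pig 4 and 0.14 without both.

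The erythroid marker sum was 66.6 CPM in High MB pig 2 and 38.3 CPM in Low MB pig 4, the lowest of their groups, and the cell source of AMPD3 was not tested.

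The balance of the AMP deaminases shifted with these pigs. For every 100 counts of AMPD1, High MB pigs 1 to 6 had 4.83, 167, 2.99, 2.53, 7.38 and 1.46 counts of AMPD3, and Low MB pigs 1 to 6 had 0.603, 1.40, 6.01, 43.0, 1.31 and 4.50. Counts of AMPD3 thus exceeded those of AMPD1 in High MB pig 2 and were below them in the other 11 pigs. Per length, AMPD3 held 0.149% to 29.3% of the AMP deaminase level, with a median of 0.920%, and its RefSeq exons together cover 10297 bases against 2557 for AMPD1. The share was 3.49 percentage points higher in High MB, within the spread of the pigs (exact permutation p = 0.587, n = 6 per group), and 1 pig set its direction, since the difference was -1.23 without High MB pig 2.

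Of the genes of creatine supply, SLC6A8 varied least between pigs. SLC6A8, which carries creatine into the fibre, lies at chrX:124435282-124452182 on the plus strand. Its lowest, median and highest values were 170, 222 and 271 CPM in High MB pigs and 188, 214 and 256 CPM in Low MB pigs, and the highest pig was 1.59 times the lowest. Only 14.7% of the genes tested had a smaller SD of log2 CPM than its 0.19. Its log2 fold change was -0.0034 (SE 0.12, edgeR adjusted p = 0.996), and the 95% interval, 0.832-fold to 1.20-fold, was the narrowest of the 8.

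GAMT, which methylates guanidinoacetate to creatine, lies at chr2:77076566-77079751 on the plus strand. Its lowest, median and highest values were 40.5, 103 and 114 CPM in High MB pigs and 56.2, 78.2 and 111 CPM in Low MB pigs, and High MB pig 2 and Low MB pig 4 were again the lowest of their groups. Its log2 fold change was 0.13 (SE 0.23, edgeR adjusted p = 0.901), with a 95% interval from 0.782-fold to 1.53-fold. Without both of these pigs it was 0.22 (SE 0.14, edgeR adjusted p = 0.687). GATM, the enzyme of the step before GAMT, averaged 2.34 CPM and had an unadjusted edgeR p of 0.297.

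Several of the genes varied together over the 12 pigs. Of 28 pairs, 11 had a Benjamini-Hochberg adjusted p under 0.05 for Pearson's r of log2 CPM (permutation test, 100000 resamples), 7 with a positive and 4 with a negative r. CKM, AK1, AMPD1 and GAMT were positively related in all 6 of their pairs, and each was negatively related to AMPD3. By Spearman's rho 3 of the 28 pairs passed, and without High MB pig 2 and Low MB pig 4 only 1 pair passed by r. The values of 1 pig for 2 genes come from the same library. The share of pairs drawn from all genes tested that would pass was not computed. The count of 11 therefore does not set the genes of this set apart from other genes.

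The pair that passed in each case was AK1 and AMPD3. Its r was -0.94 (permutation p = 2e-05, adjusted p = 0.00056) and its rho -0.84 (permutation p = 0.0012, adjusted p = 0.0336). With the pigs farthest from the median of AK1 left out (pig 2 of High MB and pig 5 of Low MB), r was -0.91. It was -0.84 without High MB pig 2 and Low MB pig 4 (permutation p = 0.00123, adjusted p = 0.0344). Within the 6 High MB pigs r was -0.97 and within the 6 Low MB pigs -0.91. Within the 7 standard libraries r was -0.93 and within the 5 deep ones -0.89, both given as a description. The standard libraries include High MB pig 2 and Low MB pig 4, and r without them in that class was not computed. The other standard libraries had 761 to 848 CPM of AK1 and 17.6 to 51.8 CPM of AMPD3. The deep ones had 764 to 1429 CPM of AK1 and 6.02 to 42.3 CPM of AMPD3. The part of depth in the r of -0.84 was not tested. Each group held an outlying pig, and r was negative in both groups.

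The relation of AMPD1 and AMPD3 depended more on the outlying pigs. Its r was -0.87 (permutation p = 0.00043, adjusted p = 0.00241) and its rho -0.78 (permutation p = 0.00407, adjusted p = 0.038). Without High MB pig 2 and Low MB pig 4, which were also the pigs farthest from the median of AMPD1, r was -0.50 (permutation p = 0.141, adjusted p = 0.439) and the relation no longer held. Within the 7 standard libraries, which include both of these pigs, r was -0.96, and within the 5 deep ones -0.39.

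**Figure D3:**
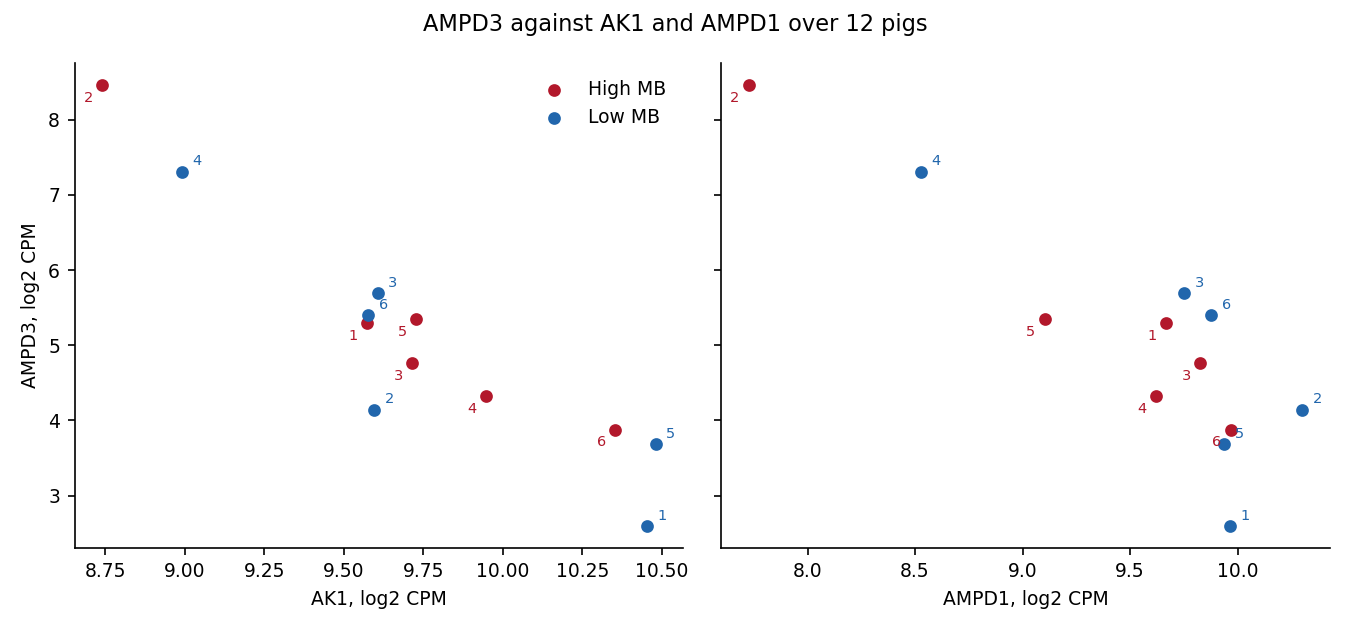
AMPD3 against AK1 (left) and against AMPD1 (right), both in log2 CPM, with 1 point per pig, High MB in red and Low MB in blue, and pig numbers beside the points. AMPD3 falls from left to right in both panels (r of -0.94 and -0.87), and High MB pig 2 and Low MB pig 4 are the pigs at the top left.

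The third pair that passed by both measures was AK1 and GAMT, with an r of 0.86 (permutation p = 0.00019, adjusted p = 0.00177) and a rho of 0.80 (permutation p = 0.00306, adjusted p = 0.038). Its r was 0.76 without the 2 pigs farthest from the median of AK1 and 0.64 without High MB pig 2 and Low MB pig 4 (permutation p = 0.0478, adjusted p = 0.334). Within the standard libraries r was 0.95 and within the deep ones 0.86.

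CKM was related to AK1 with an r of 0.85 (permutation p = 4e-05, adjusted p = 0.00056) and a rho of 0.73 (permutation p = 0.00967, adjusted p = 0.0501). Its r was 0.78 without the pigs farthest from the median of CKM and 0.72 without High MB pig 2 and Low MB pig 4 (permutation p = 0.00543, adjusted p = 0.076). CKM and AMPD1 had an r of 0.78 (permutation p = 0.00666, adjusted p = 0.0207) and a rho of 0.45 (permutation p = 0.148, adjusted p = 0.346). That relation rested on the outlying pigs, with an r of 0.45 without the pigs farthest from the median of CKM and 0.03 without High MB pig 2 and Low MB pig 4. In the standard libraries, which hold these pigs, the r of CKM was 0.88 with AK1 and 0.80 with AMPD1, and in the deep libraries 0.52 and 0.18.

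**Figure D4:**
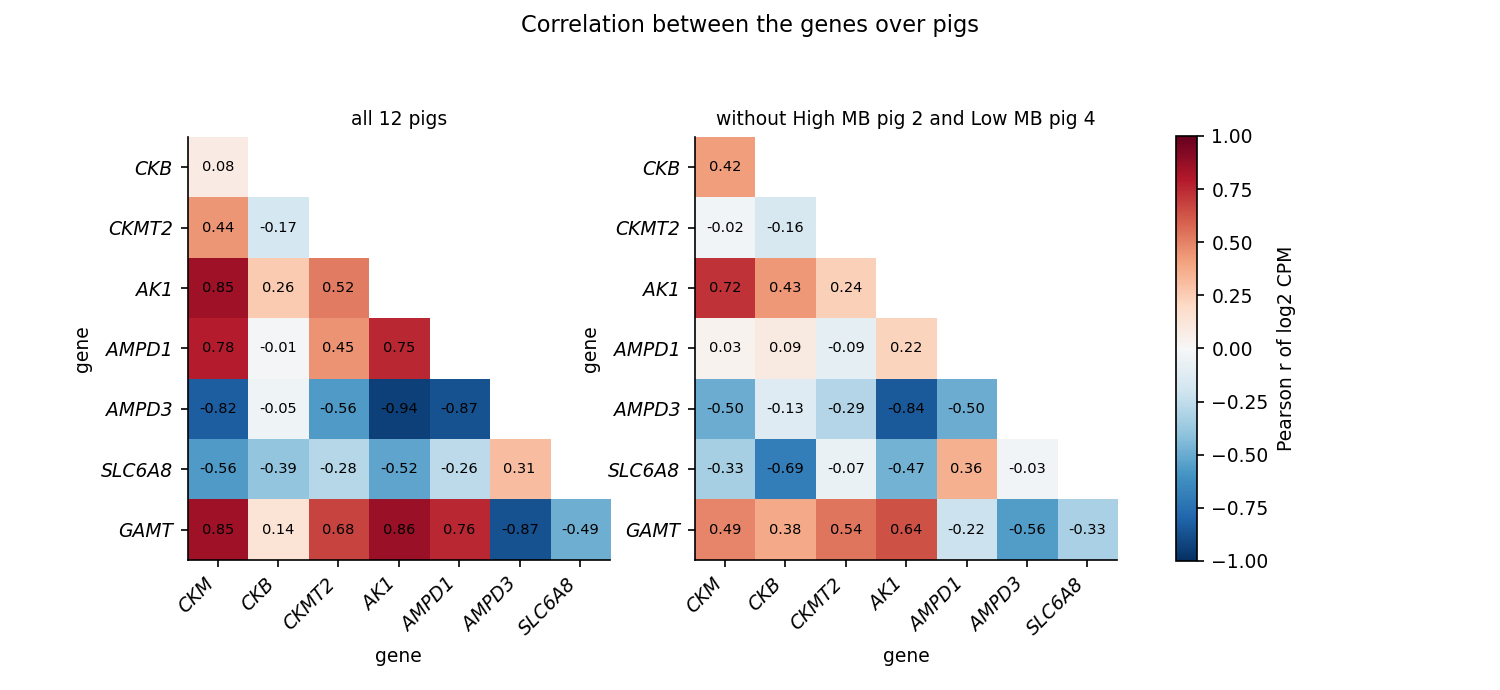
Pearson's r of log2 CPM for each of the 28 gene pairs, over all 12 pigs (left) and over the 10 pigs other than High MB pig 2 and Low MB pig 4 (right), red for positive and blue for negative. The r of AK1 and AMPD3 is -0.94 on the left and -0.84 on the right, while that of CKM and AMPD1 is 0.78 on the left and 0.03 on the right.

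Thus High MB pig 2 had a low level of the abundant muscle genes CKM, AK1 and AMPD1 together with a high level of AMPD3, and Low MB pig 4 showed the same order for AK1, AMPD1 and AMPD3. Beside these values, Low MB pig 4 had the lowest fast fibre marker sum after High MB pig 2, 35682 CPM, close to the 36815 CPM of High MB pig 1. Its macrophage marker sum of 39.4 CPM was near that of Low MB pig 6 and below those of High MB pigs 4 and 5, at 51.6 and 48.0 CPM. The part of these markers in the values was not tested.

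Within each group, the 8 genes were compared with the measured myoglobin content, which gave 16 relations over 6 pigs each. The only 1 that passed was CKB in the High MB group. The share of all genes that would pass such a test was not computed. Its negative direction was opposite to the group difference of CKB, a log2 fold change of 0.77 towards High MB that was not called. High MB pig 6, with 2.376 mg of myoglobin per g, had the highest CKB level, 9.81 CPM, and pig 4, with 2.559 mg per g, the lowest, 1.95 CPM, with the pigs between them in strict reverse order. Pearson's r was -0.97 (exact permutation p = 0.00139, adjusted p = 0.0222) and Spearman's rho -1 (exact permutation p = 0.00278, adjusted p = 0.0444). Without the 2 pigs farthest from the median myoglobin content, r was -0.88 over the remaining 4. In the Low MB group r was -0.38 (exact permutation p = 0.469, adjusted p = 0.872) and rho -0.31 (exact permutation p = 0.564, adjusted p = 0.878), and the difference between the groups was not tested. The High MB pigs with the highest and the lowest CKB level both had deep libraries. They were the 2 pigs left out above, so the r of -0.88 is also the value within the 4 standard libraries of the group. High MB pig 6 also had the highest smooth muscle marker sum, whose part in this relation was not tested.

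**Figure D5:**
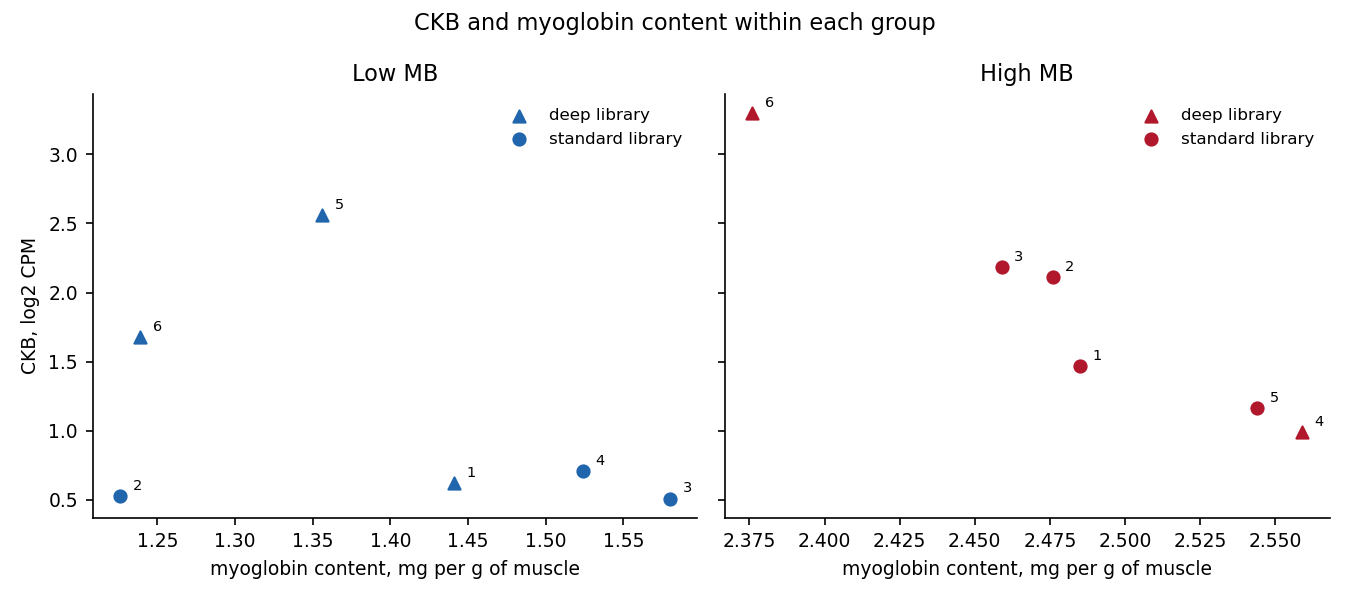
CKB level in log2 CPM against myoglobin content in mg per g of muscle, Low MB pigs on the left and High MB pigs on the right, with triangles for deep and circles for standard libraries and pig numbers beside the points. The 6 High MB pigs descend in order from pig 6 to pig 4, and the Low MB pigs show no such order.

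To place the genes among the rest of the transcriptome, the symbol-bearing genes with the highest r over the 12 pigs, up to 3 each, were listed for 5 of them, out of 10078 genes with a mean of at least 1 CPM. These genes were picked for their r, so no test is given. CKM was most like ZNF628, GAPDH and DYRK1B, with r of 0.96, 0.96 and 0.95, and GAPDH is the glycolytic enzyme that makes NADH from glyceraldehyde 3-phosphate. Among the genes most like CKMT2 were NDUFA8, a subunit of respiratory complex I, at 0.96, and UBE2M, at 0.95. AMPD3 was most like ATOSB, MYC and CRYAB, at 0.97, 0.95 and 0.95, with MYC a growth-related transcription factor and CRYAB a small heat shock protein.

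CKB was most like MFRP, MECOM and TSPAN12, with r of 0.88, 0.87 and 0.86, and AMPD1 was most like KLHL23, FBXL4 and KANK1, at 0.95, 0.95 and 0.94. With High MB pig 2 and Low MB pig 4 left out, r for the genes named ranged from 0.87 to 0.96 for CKM, 0.94 to 0.96 for CKMT2, 0.90 to 0.93 for AMPD3 and 0.85 to 0.89 for CKB, but from 0.57 to 0.73 for AMPD1.

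The other genes of the purine nucleotide cycle and of AMP salvage were counted as a list of 12, all of them tested. At an unadjusted edgeR p under 0.05, 3 were higher in High MB pigs and 0 lower, where 5.33% of all genes tested were higher at that limit, and 0 were called. AMPD2, the third AMP deaminase, had 7.87 ± 1.50 CPM in High MB and 5.91 ± 1.03 CPM in Low MB pigs (SD, n = 6 each), a log2 fold change of 0.41 (edgeR adjusted p = 0.563). PNP, which splits inosine and guanosine, and ADA, which deaminates adenosine, had log2 fold changes of 0.70 and 0.59 (edgeR adjusted p = 0.577 and 0.563). ADSS1, the muscle enzyme that starts the return of IMP to AMP, had the highest mean CPM of the list, with 1063 ± 294 CPM in High MB and 1113 ± 309 CPM in Low MB pigs (SD, n = 6 each). With High MB pig 2 and Low MB pig 4 both left out, the count was 1 of 12, where 8.17% of all genes tested were under that limit. ADA was then at an edgeR unadjusted p of 0.00723, AMPD2 at 0.0748 and PNP at 0.103. The list's median log2 fold change over all pigs was 0.16, against -0.016 over all genes tested.

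Markers of fibre types and other cells are given because they could move with the energy genes. Beside the counts below, 8.46% of all genes tested had an unadjusted edgeR p under 0.05. Of 6 slow fibre genes tested, 5 (TNNT1, TNNI1, TNNC1, MYL2 and MYL3) had an unadjusted edgeR p under 0.05, with log2 fold changes of 0.51 to 0.58 towards High MB. Of 6 fast fibre genes, 1 did, the calcium pump ATP2A1, at -0.44, and TNNT3 had the highest mean CPM. Of 8 nuclear genes of mitochondrial content 1 did, COX4I1, at 0.28, and ATP5F1A had the highest mean CPM.

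For the other cell types, 4 of 5 macrophage genes (CD163, CSF1R, MRC1 and AIF1), 2 of 5 adipocyte genes (FABP4 and CIDEC), 2 of 5 fibroblast genes (COL1A1 and PDGFRA), both erythroid genes tested (HBB and ALAS2) and 1 of 4 endothelial genes (ERG) had an unadjusted edgeR p under 0.05, all higher in High MB. None of the 3 Schwann cell and nerve genes did. With both outlying pigs (High MB 2 and Low MB 4) left out, the adipocyte count was 1 (FABP4), and the 2 fibroblast genes under 0.05 were DCN and LUM (edgeR unadjusted p = 0.0157 and 0.0331) in place of COL1A1 and PDGFRA (0.0580 and 0.0608). In these lists 0 genes were called, and the summed levels were 31.6 to 90.9 CPM in High MB and 19.2 to 39.4 CPM in Low MB pigs for macrophages. For erythroid cells they were 66.6 to 146 CPM and 38.3 to 84.4 CPM, and the defining gene AHSP averaged 0.172 CPM. The sums were 55.3 to 228 CPM in High MB and 35.8 to 199 CPM in Low MB for adipocytes, 533 to 944 CPM and 275 to 707 CPM for fibroblasts, 110 to 151 CPM and 66.0 to 169 CPM for endothelium, and 16.9 to 30.8 CPM and 14.7 to 39.0 CPM for Schwann cells and nerve. The highest mean CPM in the last 3 lists was that of COL3A1, PECAM1 and MBP. The part of these cells in the values of the 8 energy genes was not tested.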

How the data were processed

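LD muscle of 12 pigs was measured, and each pig was grouped by its GEO label. After Trim Galore and HISAT2 alignment to Sscrofa11.1, the authors deposited raw HTSeq counts per gene, not normalized; the annotation release and strand setting are not given in the sources used here. Of the uniquely aligned reads, 50.9% to 52.0% per library fell in no feature and are not part of the gene counts. Transcript tables were not used. Gene counts were 38914271 to 91318334 per library; summary lines stayed out. Replicates are separate pigs, and no 2 libraries agreed within sampling noise.

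High MB was compared with Low MB using edgeR 4.0.16 (TMM, filterByExpr, quasi-likelihood test) in R 4.3.3, with DESeq2 1.42.0 as an alternative. On simulated data for this comparison with 13223 genes, 93.9% of 4-fold and 65.3% of 2-fold changes were called, with 10 false calls. Single values were compared by exact permutation over 924 splits (smallest p 0.00216) in Python 3.11.15 with SciPy 1.17.1, and log2 CPM had a prior count of 2. Exon lengths and promoters came from RefSeq on Sscrofa11.1, and 14857 of 25880 gene IDs had a symbol. A promoter window was the 250 bases before the curated transcript's start, or before the gene's start where none was curated.

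All members with a row were named, and of each list its genes with unadjusted p under 0.05 and its gene of highest mean CPM, plus AHSP and the smooth muscle markers, chosen after values were seen. The genes most like 5 members, up to 3 each, were chosen by r, and 1 of them is not reported here. The members and lists were chosen with earlier results of these data known. Alternatives were other size factors, filters, tools, depth classes, single pigs left out, and a replicate block. The replicate numbers did not pair the pigs.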

Additional observations from a re-analysis of the deposited data

Results flagged for a closer look

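In 16 groups of 6 pigs (8 genes in each group), the gap of the most extreme pig to its neighbour was compared with Dixon's 95% critical value. Chance alone marks about 1 in 20 such groups, and 4 values were past the limit on the CPM scale. High MB pig 2 had 7452 CPM of CKM, while the other High MB pigs had 15290 to 17273 CPM. High MB pig 6 had 9.81 CPM of CKB, while the others had 1.95 to 4.51 CPM. High MB pig 2 had 353 CPM of AMPD3, while the others had 14.6 to 40.6 CPM. Low MB pig 4 had 159 CPM of AMPD3, while the other Low MB pigs had 6.02 to 51.8 CPM. Of the 4 values, 2 belong to the same library, High MB pig 2, which had a TMM factor of 1.21. On log2 CPM, a scale added after seeing the data, 4 values were also past the limit. The CKM and AMPD3 values of High MB pig 2 were past it on both scales, GAMT in High MB pig 2 and AMPD1 in Low MB pig 4 on log2 CPM, and CKB in High MB pig 6 and AMPD3 in Low MB pig 4 on CPM.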

How the results depend on the processing

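The alternatives changed no call on the 8 genes: 0 were called under each of the alternatives run. The count of all genes called was 29 with DESeq2 and 1 among the deep libraries alone, against 0. The count of the 8 genes with an unadjusted p under 0.05 was 1 with depth class as a covariate and 1 among the standard libraries, and ranged from 0 to 1 when each pig was left out, with the 1 found without Low MB pig 5. In all 3 cases the gene was CKB, with log2 fold changes of 1.02, 1.24 and 1.23 (edgeR adjusted p = 0.474, 0.768 and 0.452). Under these settings 10.01%, 6.36% and 9.67% of all genes tested had an unadjusted p under 0.05.

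The differences of 5 genes changed sign under some alternative. The log2 fold change of SLC6A8 was 0.0035 with RLE size factors, 0.048 with upper quartile factors, 0.012 without the 10 genes of highest count, 0.0041 without mitochondrial genome genes, 0.0027 with DESeq2, 0.019 with at least 10 counts in every pig and 0.036 among the standard libraries. That of CKMT2 was -0.011 and that of AK1 0.014 with depth class as a covariate. Among the standard libraries AK1 was at 0.077 and CKM at 0.012, and among the deep libraries AMPD3 was at -0.19. Leaving out single pigs gave ranges of -0.29 to 0.034 for AK1, -0.76 to 1.66 for AMPD3, -0.12 to 0.13 for CKMT2 and -0.055 to 0.062 for SLC6A8, which span 0. For AMPD1 (-0.48 to -0.13), CKB (0.32 to 1.23), CKM (-0.22 to -0.010) and GAMT (0.055 to 0.30) they did not. The causes were not tested.

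Without High MB pig 2 and Low MB pig 4, an alternative chosen after seeing the data, 1 of the 28 gene pairs passed for Pearson's r instead of 11, and by Spearman's rho, also added later, 3 did. With group means removed 10 did. With the individual number as a replicate block, 0 genes were called, 957 had an unadjusted p under 0.05 and 0 of these were among the 8. Same-numbered pigs had correlations of -0.21 to 0.14, so the numbers only name the pigs.

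Depth limits CKB most, with as few as 54 counts in a library. Intervals over 6 pigs per group do not show that any of the 8 genes is equal between the groups.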

Other observations

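Sensors and carriers that act next to the energy buffer were measured too. AMP-activated protein kinase, which responds to AMP, has 7 subunit genes, all tested. Of these, PRKAG1 alone had an unadjusted edgeR p under 0.05, where 8.46% of all genes tested did. It had 39.5 ± 8.07 CPM in High MB and 30.0 ± 5.47 CPM in Low MB pigs (SD, n = 6 each, log2 fold change 0.40, edgeR adjusted p = 0.563). The highest mean CPM was that of PRKAB2, at 357 ± 53.6 CPM and 407 ± 46.7 CPM (SD, n = 6 each, edgeR unadjusted p = 0.160).

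Of 6 genes that pass ATP and ADP across the mitochondrial membranes, 5 had a row and 0 of these had an unadjusted edgeR p under 0.05. SLC25A4, the ADP and ATP carrier of muscle, had 1861 ± 406 CPM in High MB and 2039 ± 639 CPM in Low MB pigs (SD, n = 6 each), the highest mean CPM of the list.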
